A study of Mus musculus with 28 samples.

Results

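T cell receptor variable (V) segments were measured in 28 subcutaneous AB1-HA tumors, a mouse mesothelioma line that expresses influenza hemagglutinin, grown in BALB/c.AusBP mice. The segments were taken as every row of the 2 deposited count matrices named as a Trav segment (receptor alpha chain) or a Trbv segment (receptor beta chain), provided that at least 1 count fell on it in any tumor. Of 163 such rows, 129 had a count: 104 of 128 Trav rows on chromosome 14 and 25 of 35 Trbv rows on chromosome 6. These 129 were among 36525 genes with a count, out of 55341 rows in each matrix. By annotation 122 were V genes and 7 were V pseudogenes.

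Each tumor came from a different mouse, and all were taken 7 days after treatment, which began when tumors measured 20 to 25 mm². Mice received PBS (n = 4), immune checkpoint blockade (ICB, n = 5), 5-FU (n = 5), cisplatin (n = 4), 5-FU+ICB (n = 5) or cisplatin+ICB (n = 5). ICB was anti-CTLA-4 plus anti-PD-L1 at 100 µg each, followed by 2 additional doses of anti-PD-L1. The antimetabolite 5-FU was given at 75 mg/kg intravenously, and cisplatin, a platinum compound that crosslinks DNA, at 6 mg/kg intraperitoneally. All other treatments were also intraperitoneal, and the tumors of every group came from 1 cell line. Tumors are named here by group and replicate number.

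A T cell builds its receptor by joining V, diversity (beta chain only) and joining segments of the DNA, and the joined V exon is then spliced to a constant region, Trac for the alpha chain or Trbc1 or Trbc2 for the beta chain. Each T cell clone therefore transcribes chiefly a single V segment per chain, and when a clone expands, its segments take a larger part of the V reads of a tissue. Many clones share a segment, so V counts show segment usage and not clones, and short reads do not tell which alpha and beta chains belong to the same cell.

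RNA was read from whole tumors, so more T cells and more receptor RNA per T cell cannot be told apart. Total estimated counts were 23541733 (5-FU 3) to 33950805 (ICB 2) per tumor, and only a few of these fell on V segments, from 50.6 in Cisplatin 2 to 3352 in 5-FU+ICB 5, with a median of 336.6. Msln, a mesothelioma marker, was at 34.4 CPM or more in 27 tumors and at 0.50 CPM in 5-FU+ICB 5, where CPM is the count per 1000000 counts of the library, after TMM scaling of the library size. Of the other mesothelial markers, Wt1 and Upk3b were at most 2.79 and 0.0671 CPM in any tumor, while the keratins Krt8, Krt18 and Krt19 were highest in 5-FU+ICB 5, at 33.4, 27.15 and 48.9 CPM against at most 9.33, 1.52 and 1.86 CPM elsewhere. 5-FU+ICB 5 also stood apart in B cell and lymph node genes, with Cr2 at 61.0 CPM against at most 2.58 elsewhere and Ighd at 260.9 CPM against at most 11.5. Cisplatin+ICB 1 stood apart in its receptor chains, with only 9 Trav counts beside 154 Trbv counts, and had the highest Msln level, 654.5 CPM. The part of these signals in the V results was not tested.

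The ends of the V segments that led their locus most clearly in single tumors are shown first, because they carry the usage patterns described afterwards. Each line gives the last 100 bases of the annotated V exon, 5′ to 3′, from the GENCODE M21 transcripts of GRCm38 (plus strand), a C57BL/6J reference, whereas the mice were BALB/c.AusBP. Capitals mark the last in-frame cysteine codon and the bases after it, where the junction with the next segment begins. The Trbv13-1, Trbv13-2, Trbv13-3 and Trbv14 ends lie at chr6:41116369-41116468, chr6:41121733-41121832, chr6:41130486-41130585 and chr6:41135517-41135616, and that of Trbv4 at chr6:41059787-41059886.
Trbv13-1: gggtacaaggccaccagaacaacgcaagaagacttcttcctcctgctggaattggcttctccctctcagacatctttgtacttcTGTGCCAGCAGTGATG
Trbv13-2: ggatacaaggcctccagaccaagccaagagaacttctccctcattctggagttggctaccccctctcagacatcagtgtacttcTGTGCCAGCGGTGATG
Trbv13-3: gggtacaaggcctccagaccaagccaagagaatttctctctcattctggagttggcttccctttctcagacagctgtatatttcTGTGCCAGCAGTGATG
Trbv14: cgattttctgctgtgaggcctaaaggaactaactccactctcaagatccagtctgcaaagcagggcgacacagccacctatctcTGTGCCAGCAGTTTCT
Trbv4: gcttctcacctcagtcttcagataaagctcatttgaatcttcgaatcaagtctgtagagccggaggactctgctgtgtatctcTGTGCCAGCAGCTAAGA

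The corresponding Trav ends lie at chr14:53666407-53666506 (Trav3-3), chr14:53443740-53443839 (Trav7-3), chr14:53461639-53461738 (Trav7-4), chr14:53506187-53506286 (Trav10), chr14:53704415-53704514 (Trav5-4) and chr14:53002133-53002232 (Trav5d-4). They are printed because the unit of near-identical copies to which each belongs led the Trav counts of at least 1 treated tumor, and because copies such as Trav5-4 and Trav5d-4 show how alike these segments are.
Trav3-3: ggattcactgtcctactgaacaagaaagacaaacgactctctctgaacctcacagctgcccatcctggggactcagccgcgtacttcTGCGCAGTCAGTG
Trav7-3: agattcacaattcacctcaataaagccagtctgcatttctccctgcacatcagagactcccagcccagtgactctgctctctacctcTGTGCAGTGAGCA
Trav7-4: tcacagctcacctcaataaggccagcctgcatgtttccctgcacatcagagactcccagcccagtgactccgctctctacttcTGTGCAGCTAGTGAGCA
Trav10: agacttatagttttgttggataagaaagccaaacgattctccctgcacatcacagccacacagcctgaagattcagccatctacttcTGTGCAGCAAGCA
Trav5-4: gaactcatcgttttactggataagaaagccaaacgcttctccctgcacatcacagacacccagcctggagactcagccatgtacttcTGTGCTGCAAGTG
Trav5d-4: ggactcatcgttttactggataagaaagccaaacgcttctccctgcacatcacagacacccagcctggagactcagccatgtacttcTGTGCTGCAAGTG

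The mouse alpha locus holds duplicated blocks, and this sets what can be read from single Trav rows. Of the 104 Trav segments with a count, 77 had at least 1 copy of 97% or higher identity over the transcript, and 33 had no 31-base word of their own, the default word length of the read assignment tool. Trav10 and Trav10d were 99.3% identical, and the 100 bases shown for Trav10 also end Trav10d at chr14:52811397-52811496. Trav5d-4 and Trav5n-4 were 100% identical and each received 48.2% of the counts of their unit, an even split of reads that fit both, while Trav5-4, 98.3% identical to Trav5d-4, received 3.52%. The beta locus was different, since no Trbv segment had such a copy and 19 of 25 shared no 31-base word with another segment. Trbv13-1 and Trbv13-2 were 87.9% identical and Trbv13-2 and Trbv13-3 90.6%. Copies were therefore summed into 60 Trav units and 25 Trbv units wherever a leading segment is named, and a unit is called by its first member.

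Usage was concentrated in a minority of segments in both loci. Over all tumors the 3 segments with the most counts held 42.0% of Trbv counts and the first 8 held 79.4%, against 28.9% and 42.6% for Trav. Per kilobase, the order of mean levels in the beta locus was Trbv13-2 (8.35 CPM per kilobase), Trbv4 (5.76), Trbv13-1 (5.47), Trbv13-3 (5.204), Trbv14 (4.91), Trbv5 (2.76), Trbv19 (2.14) and Trbv2 (1.58). This order weighs tumors by their receptor content, and by median share of a tumor's Trbv counts Trbv13-1 came first (12.7%), followed by Trbv13-2 (11.3%), Trbv19 (7.33%), Trbv14 (6.80%), Trbv5 (6.47%) and Trbv4 (4.31%). The levels of Trbv4 and Trbv13-3 rested on single tumors, since their highest values were 35.7 CPM in 5-FU+ICB 1 and 30.9 CPM in 5-FU+ICB 5. Neighbours in this order did not separate beyond their spread, as the SD between tumors was near or above the mean in most treated groups. Trbv1, Trbv5, Trbv13-1, Trbv13-2, Trbv19 and Trbv31 had a count in all 28 tumors, and no Trav segment did.

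Pseudogenes took almost none of the reads, which is a check on how the V counts were assigned. The 4 Trav pseudogenes with a count held 0.332% of Trav counts and the 3 Trbv pseudogenes 0.203% of Trbv counts. All 10 Trbv rows without a count, and 16 of the 24 such Trav rows, were pseudogenes. BALB/c mice are known to delete T cells of certain beta families through endogenous retroviral superantigens, and the segments of those families, chosen here after their values were seen, were low: Trbv12-1 held 0.273% of Trbv counts, Trbv12-2 1.22%, Trbv15 0.772%, Trbv16 1.11% and Trbv26 0.109%. Their levels relative to a strain without such deletion cannot be read from these tumors.

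The amount of V segment RNA was compared first, to ask whether chemotherapy, ICB or both changed the T cell receptor content of the tumors. All 5 ICB tumors, all 5 5-FU+ICB tumors, 4 of 5 5-FU tumors and 4 of 5 cisplatin+ICB tumors held more Trav RNA than any PBS tumor, whereas cisplatin tumors lay around the PBS values. Summed Trav CPM was 1.01, 1.05, 1.33 and 1.76 in the PBS tumors, and 10.5, 9.94, 29.0, 4.72 and 17.9 in the ICB tumors. The groups did not overlap, and the mean of 14.4 ± 9.41 (SD, n = 5) under ICB was 11.2 times the PBS mean of 1.29 ± 0.345 (SD, n = 4). With 5-FU+ICB the 5 tumors were at 30.95, 2.202, 12.2, 15.0 and 57.3 CPM. These also lay above every PBS tumor, but they spanned from just above PBS to the highest level of the series, with a mean of 23.5 ± 21.5 (SD, n = 5) that fell to 15.1 ± 11.9 (SD, n = 4) without 5-FU+ICB 5.

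Group means were lower with chemotherapy alone than with ICB. The 5-FU tumors were at 2.58, 3.56, 12.4, 1.56 and 5.84 summed Trav CPM, and the cisplatin tumors at 1.81, 0.572, 1.28 and 1.90. The 5-FU mean of 5.19 ± 4.34 (SD, n = 5) was 4.03 times that of PBS and 2.62 times without 5-FU 3, while the cisplatin mean of 1.39 ± 0.61 (SD, n = 4) was 1.08 times that of PBS and, at 1.22, lay below it without Cisplatin 4. Cisplatin+ICB tumors were at 0.477, 5.13, 1.83, 8.60 and 11.3 CPM, with a mean of 5.48 ± 4.54 (SD, n = 5), or 6.73 ± 4.14 (SD, n = 4) without Cisplatin+ICB 1. That tumor was the only one of its group below the PBS tumors.

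Summed Trbv CPM gave the same order of group means for 5-FU+ICB, ICB and cisplatin+ICB, and the beta chain was read at higher CPM than the alpha chain in every tumor but PBS 3 and Cisplatin 3. It was 2.19, 4.35, 1.05 and 2.19 in PBS tumors, 15.0, 20.4, 33.4, 10.8 and 29.3 under ICB, and 67.9, 3.64, 31.3, 33.4 and 110.3 under 5-FU+ICB. The ICB mean was 21.8 ± 9.47 (SD, n = 5), 8.91 times the PBS mean of 2.45 ± 1.38 (SD, n = 4), and the 5-FU+ICB mean was 49.3 ± 41.0 (SD, n = 5), 20.2 times that of PBS and 13.9 times without 5-FU+ICB 5. 5-FU+ICB 2 was the exception of its group, inside the PBS range at 3.64. 5-FU tumors were at 3.55, 5.38, 27.0, 2.56 and 9.38 CPM, cisplatin tumors at 2.52, 1.36, 0.872 and 4.26, and cisplatin+ICB tumors at 8.15, 13.5, 2.21, 17.2 and 21.8. In 5-FU 3 the level was far above that of the other 5-FU tumors, and without it the group mean of 9.58 ± 10.1 (SD, n = 5) became 5.22 ± 3.01 (SD, n = 4). No p-value is given for these sums, since they are scores over a chosen set, and single segments were tested instead.

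**Figure D1:**
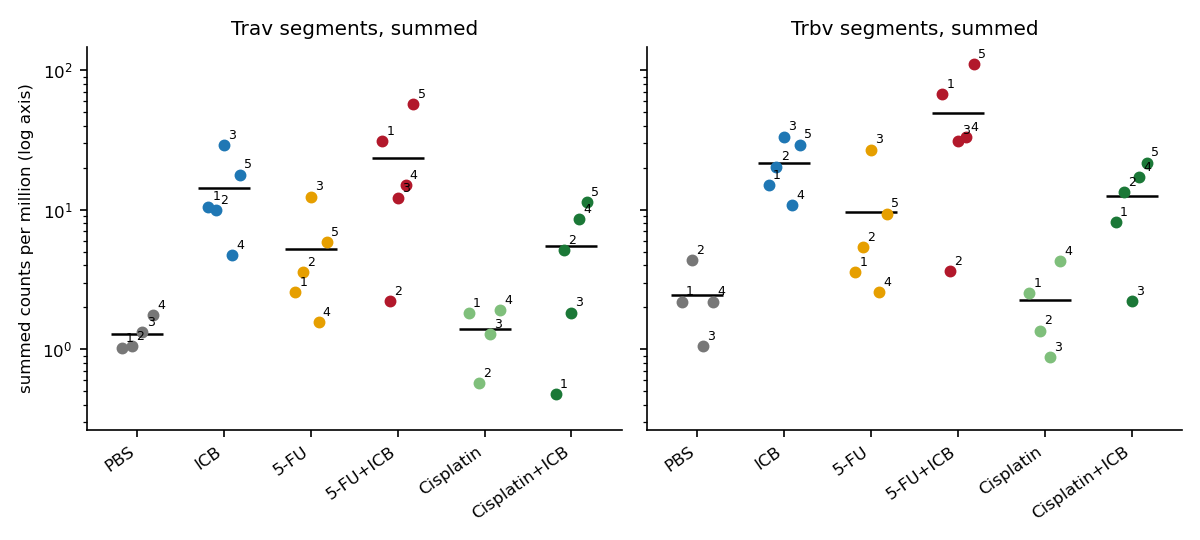
Summed CPM of Trav segments and of Trbv segments in each of the 28 tumors on a log axis, grouped by treatment, with the group mean marked. All ICB tumors lie above the PBS tumors in both loci, 5-FU+ICB spans from 2.202 to 57.3 Trav CPM, and the cisplatin tumors lie around PBS.

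V segments were next set against the constant regions they are spliced to, and for Trbv this ratio was higher under ICB than in PBS tumors. Per 100 CPM of Trac there were 17.0 to 33.9 CPM of Trav over the 28 tumors (median 22.8), and per 100 CPM of Trbc1 and Trbc2 together there were 10.7 to 25.7 CPM of Trbv (median 18.9). The alpha to beta balance varied more, from 5.86 to 146.2 Trav CPM per 100 Trbv CPM with a median of 52.0. Both ends rested on few counts, the lowest being Cisplatin+ICB 1 and the highest Cisplatin 3, which had 38 Trav and 26 Trbv counts.

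Cisplatin+ICB 1 had little alpha chain RNA relative to its beta chain RNA, in the constant regions as well as in the V counts. It had 2.81 CPM of Trac, the alpha constant region, beside 21.5 CPM of Trbc1 and 25.6 CPM of Trbc2, so that Trac was at 5.98 CPM per 100 CPM of Trbc, against 20.5 in the next lowest tumor (PBS 2) and a median of 48.1. In the same tumor Ptcra, which pairs with the beta chain in immature thymocytes, was at 3.74 CPM against at most 1.05 in any other. Cd3e was at 1.80 CPM there, below all PBS tumors (3.08 to 4.64), whereas Cd3d was at 8.35 CPM, above all of them (1.85 to 5.65). What these levels have to do with each other was not tested.

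The number of segments detected was asked next. With 1 count as the minimum, PBS tumors held 32 to 44 of the 129 segments and ICB tumors 53 to 85, with means of 36.0 ± 5.66 (SD, n = 4) and 75.8 ± 13.0 (SD, n = 5). Means were 81.6 ± 21.3 (SD, n = 5) for 5-FU+ICB, 59.2 ± 17.96 (SD, n = 5) for 5-FU, 57.0 ± 20.1 (SD, n = 5) for cisplatin+ICB (64.75 without Cisplatin+ICB 1) and 36.25 ± 11.1 (SD, n = 4) for cisplatin. The highest number, 103, was in 5-FU+ICB 5 and the lowest, 22, in Cisplatin 2, the tumors with the most and the fewest V counts. Detection differed in kind between the loci, with 7 to 81 Trav segments but only 11 to 22 Trbv segments per tumor.

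Detection depends on the number of V counts, so tumors were also set to the same depth, as the number of segments expected when 50 V counts are drawn from each. On this scale the groups given ICB had the lowest means. PBS tumors had 27.5 ± 4.97 (SD, n = 4) segments per 50 counts, cisplatin tumors 26.6 ± 2.95 (SD, n = 4) and 5-FU tumors 25.7 ± 2.12 (SD, n = 5), and the order of these was not fixed, since the PBS mean was 25.5 without PBS 3. The groups given ICB had fewer, with 22.4 ± 3.01 (SD, n = 5) for ICB, 22.9 ± 4.37 (SD, n = 5) for cisplatin+ICB (24.2 without Cisplatin+ICB 1) and 21.2 ± 2.99 (SD, n = 5) for 5-FU+ICB. The ranges overlapped: PBS tumors spanned 21.3 to 33.4, and 2 of 5 ICB, 3 of 5 5-FU+ICB and 2 of 5 cisplatin+ICB tumors lay below the lowest of them. The lowest value of all, 17.5, was in 5-FU+ICB 1. The values are expectations from each tumor's own counts, and in the shallowest tumor 50 draws are nearly all of its counts. Both loci were drawn together and Trbv has fewer segments, so the value also depends on the alpha to beta balance. PBS 2 (21.3) had 24.2 Trav counts per 100 Trbv counts, PBS 3 (33.4) had 127.1 and Cisplatin+ICB 1 (17.7) had 5.86. The part of this balance in the group means was not tested.

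**Figure D2:**
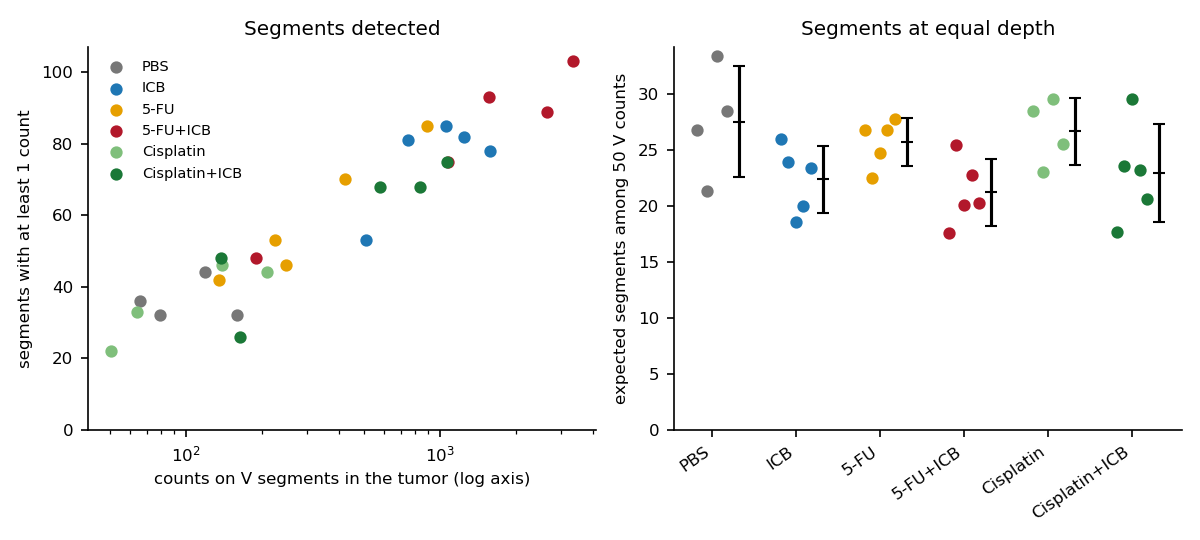
Number of V segments with at least 1 count per tumor against its V counts (log axis), and the number expected in 50 V counts per tumor by group. Detection climbs with V counts, from 22 to 103 segments, while at equal depth the PBS tumors sit at 21.3 to 33.4 and the 5-FU+ICB tumors at 17.5 to 25.4.

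Evenness of usage was lowest in the ICB and 5-FU+ICB groups. It was measured with the Pielou index, which is 1 when all detected segments are used equally. Trav evenness was 0.967 ± 0.0107 (SD, n = 4) in PBS tumors, 0.9497 ± 0.0183 (SD, n = 4) with cisplatin, 0.915 ± 0.0441 (SD, n = 5) with 5-FU, 0.896 ± 0.0922 (SD, n = 5) with cisplatin+ICB, 0.795 ± 0.0975 (SD, n = 5) with ICB and 0.763 ± 0.138 (SD, n = 5) with 5-FU+ICB. All 5 ICB tumors and all 5 5-FU+ICB tumors lay below the lowest PBS tumor, in Trav and in Trbv alike. So did 4 of 5 5-FU tumors in each locus, and 3 of 5 cisplatin+ICB tumors in Trav and 5 of 5 in Trbv. Of the cisplatin tumors, 2 of 4 did in Trav and 1 of 4 in Trbv. Trbv evenness was 0.936 ± 0.0199 (SD, n = 4) for PBS, 0.755 ± 0.0627 (SD, n = 5) for ICB and 0.751 ± 0.0995 (SD, n = 5) for 5-FU+ICB, with 5-FU at 0.828 ± 0.0808 (SD, n = 5), cisplatin+ICB at 0.817 ± 0.104 (SD, n = 5) and cisplatin at 0.914 ± 0.017 (SD, n = 4). The Trav index of 1.0 in Cisplatin+ICB 1 came from 9 counts on 7 segments, and without that tumor the cisplatin+ICB mean was 0.870 ± 0.0826 (SD, n = 4).

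Few reads raise the Pielou index by themselves, so a measure that does not depend on depth on average was added: the chance, in percent, that 2 counts drawn from a tumor's locus fall on the same unit. For Trav it averaged 3.23% in PBS tumors, 5.34% with 5-FU, 5.37% with cisplatin, 7.65% with cisplatin+ICB, 10.9% with ICB and 14.6% with 5-FU+ICB. The cisplatin+ICB mean was 5.02% without Cisplatin+ICB 5, below those of 5-FU and cisplatin. All 4 cisplatin tumors, at 4.41% to 6.67%, lay above the highest PBS tumor. For Trbv it averaged 7.17%, 14.1%, 8.48%, 14.2%, 16.9% and 17.5% in the same order of groups, and 3 of 4 cisplatin tumors lay above the highest PBS tumor. Within groups the tumors differed widely, the highest values being 27.4% for Trav (5-FU+ICB 5) and 30.4% for Trbv (5-FU+ICB 1), and the lowest of both loci were in PBS 3.

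The lower evenness came with single units that took a large part of a tumor's V counts. In PBS tumors the leading Trav unit held 8.11% to 16.0% of Trav counts and the leading Trbv segment 11.7% to 16.7% of Trbv counts. The leading Trbv segment held 19.1% to 44.2% in ICB tumors (median 32.7%), 15.5% to 47.3% in 5-FU tumors (median 29.0%), 19.7% to 52.6% in 5-FU+ICB tumors (median 28.0%) and 16.2% to 53.3% in cisplatin+ICB tumors (median 22.9%). In cisplatin tumors it held 13.9% to 23.1% (median 17.75%), and the leading Trav unit 10.9% to 26.7% (median 17.4%), on 4 to 20 counts. The lower bound of its 95% Wilson interval exceeded 16.7%, the highest PBS share, in 4 of 5 ICB, 3 of 5 5-FU, 0 of 4 cisplatin, 4 of 5 5-FU+ICB and 3 of 5 cisplatin+ICB tumors. For Trav units, against 16.0%, this held in 3 of 5 ICB, 1 of 5 5-FU, 0 of 4 cisplatin, 3 of 5 5-FU+ICB and 1 of 5 cisplatin+ICB tumors. The intervals cover counting error only, and reads of the same molecule cannot be recognised without molecular identifiers.

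**Figure D3:**
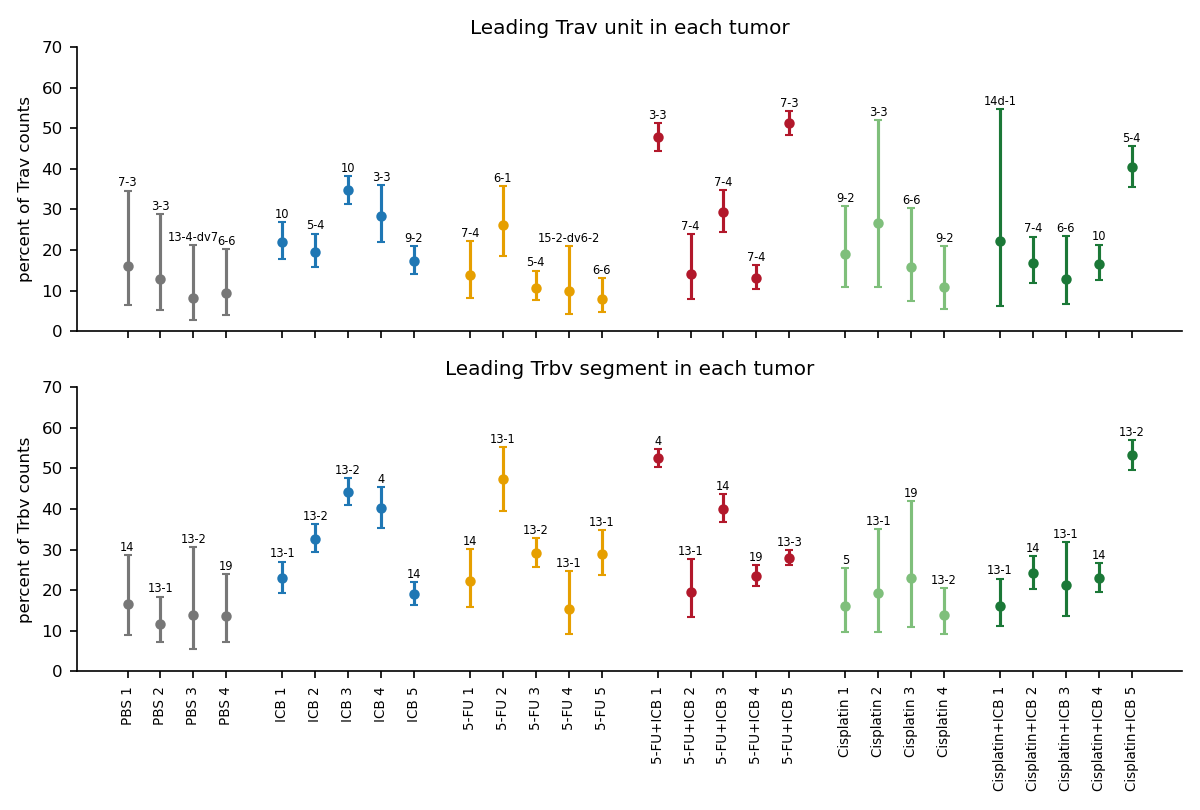
Share of a tumor's Trav counts (top) and Trbv counts (bottom) held by its leading unit, in percent, with 95% Wilson intervals, by treatment. PBS tumors sit at or below 16.0% and 16.7%, and the highest shares are 51.3% for Trav (5-FU+ICB 5) and 53.3% for Trbv (Cisplatin+ICB 5).

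The largest Trbv shares belonged to a few segments, of which Trbv13-2 and Trbv4 each held a large share in more than 1 mouse. In 5-FU+ICB 1, Trbv4 took 958 of 1823 Trbv counts, 52.6% (95% interval 50.3 to 54.8), and the Trav3-3 unit 397 of 831 Trav counts, 47.8% (44.4 to 51.2). Cisplatin+ICB 5 was led by Trbv13-2 with 375 of 703 counts, 53.3% (49.7 to 57.0), and by the Trav5-4 unit with 148 of 366, 40.4% (35.5 to 45.5). In each of these tumors 1 alpha unit and 1 beta segment thus held 40.4% or more of their locus. In 5-FU+ICB 5 the Trav7-3 unit took 588 of 1146 Trav counts, 51.3% (48.4 to 54.2), but Trbv13-3 only 618 of 2207, 28.0% (26.2 to 29.9). In ICB 3 the Trav10 unit held 255 of 735 counts (34.7%) and the Trav7-3 unit a further 199 (27.1%), beside Trbv13-2 with 374 of 846 (44.2%). Here 2 alpha units stood out and the second Trbv segment, Trbv13-1, held 102 counts (12.1%).

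Leading segments were also clear at low depth. 5-FU 2, with 150 Trbv counts, had Trbv13-1 at 71 of them, 47.3% (39.5 to 55.3), and Trav6-1 at 26 of 99 Trav counts, 26.3% (18.6 to 35.7). Trav6-1 has no near-identical copy and was at 0 to 9 counts in all other tumors. By contrast, ICB 5 had no dominant beta segment, with Trbv14 at 148 and Trbv4 at 136 of 776 counts.

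**Figure D4:**
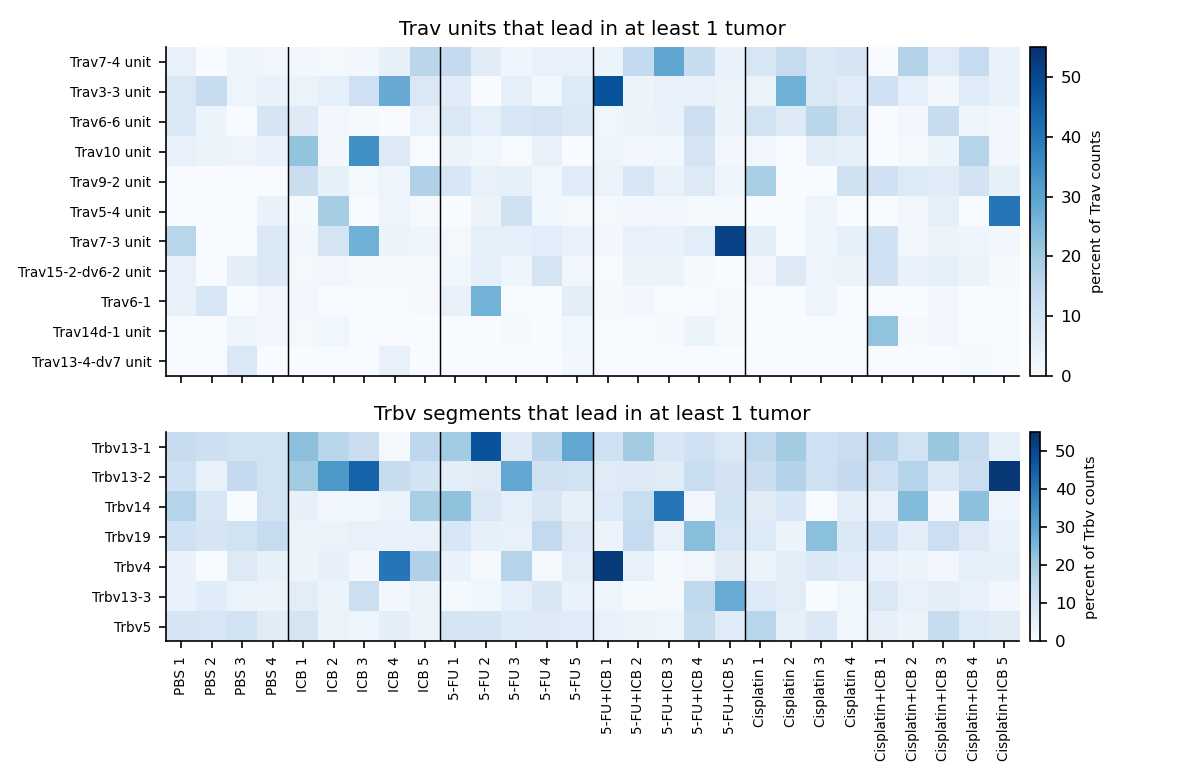
Share of Trbv counts (or Trav counts) held by each frequently leading unit in each of the 28 tumors, in percent, as a heat map with tumors in group order. High shares are scattered over different units in treated tumors, such as Trbv4 in 5-FU+ICB 1 and ICB 4 and Trbv13-2 in Cisplatin+ICB 5 and ICB 3.

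Across the 28 tumors 11 Trav units and 7 Trbv segments led their locus, in 20 different pairs. The 6 pairs that led in more than 1 tumor covered 14 tumors, and each of the 6 joined tumors of different treatments. Among them were the Trav3-3 unit with Trbv13-1 (PBS 2 and Cisplatin 2), the Trav6-6 unit with Trbv19 (PBS 4 and Cisplatin 3) and the Trav6-6 unit with Trbv13-1 (5-FU 5 and Cisplatin+ICB 3). The Trav3-3 unit led with Trbv4 in 5-FU+ICB 1 (values above) and in ICB 4, where they held 44 of 155 (28.4%) and 143 of 355 counts (40.3%). The Trav5-4 unit led with Trbv13-2 in Cisplatin+ICB 5, in ICB 2 (68 of 348 and 233 of 713 counts) and in 5-FU 3 (30 of 279, tied with Trav7-1, and 177 of 607). The Trav7-4 unit led with Trbv14 in 5-FU+ICB 3 (88 of 300 and 310 of 773 counts), Cisplatin+ICB 2 (27 of 161 and 102 of 422) and 5-FU 1 (13 of 94 and 29 of 130). The Trav shares in 5-FU 3 (10.75%) and 5-FU 1 (13.8%) lay inside the PBS range of leading shares. No PBS or cisplatin tumor had any of the 3 pairs given here with counts in the lead, but leaders rested on 3 to 15 counts in PBS tumors. Whether leading alpha and beta segments came from the same cells cannot be told from these reads, and the chance of such a repeat was not tested.

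Unit levels show how far the leaders stood above the same unit elsewhere. The Trav5-4 unit was at 4.58 CPM in Cisplatin+ICB 5, 1.94 in ICB 2 and 1.34 in 5-FU 3, while the other ICB tumors were at 0.0682 to 0.122. The Trav10 unit was at 10.1 CPM in ICB 3 and 2.32 in ICB 1 against 0.0756 to 0.335 in the other ICB tumors. In 5-FU+ICB tumors the Trav7-4 unit was at 1.01, 0.310, 3.57, 1.95 and 2.10 CPM, all above the PBS tumors (at most 0.0406). It was also at 2.80 CPM in ICB 5, above 4 of these 5, and at 0.0857 to 0.395 CPM in the other ICB tumors.

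The segments Trbv13-1, Trbv13-2, Trbv13-3 and Trbv14 lie within chr6:41116007-41135616, with Trbv12-2 and Trbv12-3 between them. Together the 4 held 45.5% of Trbv counts in the median tumor, 18.9% in ICB 4, which was led by Trbv4, and 70.2% in ICB 3. The balance of the beta constant regions also shifted with the tumor. Trbc2 made up 83.1% of Trbc counts in ICB 3 and 83.0% in 5-FU+ICB 1 but 41.9% in 5-FU+ICB 3, whereas PBS tumors lay at 55.7% to 68.8%. Trbc1 and Trbc2 are alike in sequence, so part of their reads may be shared.

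Single segments were then tested against all genes. The quasi-likelihood test of edgeR was used, with p-values adjusted by Benjamini-Hochberg across every tested gene, and a gene was called at an adjusted p under 0.05 with an absolute log2 fold change over 0.5. The filter on low counts kept 22 of the 129 segments (7 Trav, 15 Trbv) in the matrix with 5-FU and 15 in the matrix with cisplatin. A segment that passed only through the groups where it was high was bound to differ there, so the counts of called segments describe those tested and not all 129.

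In ICB against PBS, 11 of the 22 tested segments rose and 0 fell, where 19% of the 17916 genes tested were called higher. Trbv13-2 was at 0.243, 0.170, 0.145 and 0.233 CPM in PBS tumors and at 3.00, 6.66, 14.8, 1.40 and 2.99 CPM in ICB tumors. The groups did not overlap, and the log2 fold change was 4.86 (SE 1.28, edgeR adjusted p = 0.00648). Trbv13-1 was at 0.284, 0.509, 0.108 and 0.233 CPM in PBS tumors and at 3.44, 3.26, 4.03, 0.122 and 4.42 CPM in ICB tumors. ICB 4 lay within the PBS range and the other 4 above it, with a log2 fold change of 3.40 (SE 0.90, edgeR adjusted p = 0.00681).

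Trbv2 rose by 4.15 (SE 1.12, edgeR adjusted p = 0.00768) and was above all PBS tumors in 5 of 5, at 0.237 to 3.14 CPM. Trbv4 was at 0.458, 0.885, 0.547, 4.34 and 5.12 CPM, again all above PBS (at most 0.0997), with a log2 fold change of 5.10 (SE 1.90, edgeR adjusted p = 0.0387). Trav10, at 2.13, 0.0714, 7.90, 0 and 0.0378 CPM, had no rounded count in PBS tumors, so its mean was at least 18.8-fold higher, taken against a floor of 3 counts per PBS tumor. That mean rested on ICB 1 and ICB 3, and Trav10 passed the filter in only 7 of the 9 fits that left out 1 tumor. Trav7-4, also called, had a mean at the floor itself, for which no fold is given. Trav3-3, Trav16d-dv11, Trbv12-2, Trbv17 and Trbv20 were the other segments called. Of the 11, Trbv2, Trbv13-1, Trbv13-2, Trbv17 and Trbv20 were called in all 9 fits that left out 1 tumor. The count was 6 of 21 tested without ICB 3 (16.2% of all genes higher) and 7 of 27 without PBS 2 (15.8%). Trbv14, Trbv19 and Trbv5, widely used segments, did not pass (edgeR adjusted p = 0.0757, 0.0910 and 0.0659). Fitted in the matrix with cisplatin, the same 9 tumors gave 10 of 15 tested segments called higher, where 15.5% of all genes were. Trbv5, Trbv19 and Trbv13-3 were then called (edgeR adjusted p = 0.0167, 0.0326 and 0.00963) and Trbv14 was not (0.110).

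With 5-FU+ICB against PBS, 21 of the 22 tested segments rose, the exception being Trav10 (edgeR adjusted p = 0.0548), and 0 fell, where 21.9% of all genes were called higher. Trav7-4 was at 0.704, 0.310, 3.57, 1.89 and 1.91 CPM in 5-FU+ICB tumors and had no rounded count in PBS tumors, at least 15.5-fold higher on the same floor (edgeR adjusted p = 0.00082). Its highest level was 0.263 CPM in ICB and 0.216 CPM in 5-FU tumors, and it passed the filter in only 5 of the 9 fits that left out 1 tumor. Trav7-4 thus passed through the 5-FU+ICB tumors where it was high, and its p-value is not independent of the filter. Trbv19 was at 2.16, 0.496, 1.22, 7.86 and 9.55 CPM against 0.243, 0.407, 0.108 and 0.299 in PBS tumors. All 5 lay above PBS, with a log2 fold change of 4.01 (SE 0.82, edgeR adjusted p = 0.0017).

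Some of the largest fold changes rested on 1 tumor. Trbv4 was at 35.7, 0.155, 0.243, 0.588 and 6.84 CPM, so that its log2 fold change of 7.04 (SE 2.00, edgeR adjusted p = 0.00968) drew mainly on 5-FU+ICB 1 and was 4.91 without it. Trbv13-3 was at 1.53, 0.0310, 0.365, 4.83 and 30.9 CPM, with 6.00 (SE 1.64, edgeR adjusted p = 0.00795), or 3.87 without 5-FU+ICB 5. Trav7-3 was at 29.0 CPM in 5-FU+ICB 5 and at most 0.897 CPM in the rest, and was not called without that tumor. Trbv14 was at 5.03, 0.465, 12.6, 0.588 and 11.5 CPM and rose by 4.61 on the log2 scale (SE 1.22, edgeR adjusted p = 0.00671). Without 5-FU+ICB 5, 14 of 19 tested segments were called (18.8% of all genes higher). Without 5-FU+ICB 2, the tumor of lowest V level in the group, 22 of 22 were (25.1%). Of the 21, 12 were called in all 9 fits that left out 1 tumor.

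With 5-FU alone against PBS, 3 of 22 tested segments rose, where 9.98% of all genes were called higher. They were Trav7-4 (edgeR adjusted p = 0.0393), Trbv13-1 with a log2 fold change of 2.52 (SE 0.88, edgeR adjusted p = 0.0427) and Trbv20 with 3.29 (SE 1.11, edgeR adjusted p = 0.038). Trbv13-1 was at 0.712, 2.55, 1.96, 0.397 and 2.73 CPM, above all PBS tumors in 4 of 5. Trav7-4 averaged 0.130 CPM, near the floor of 0.108 CPM that 3 counts per PBS tumor give. The count was 0 when 5-FU 3, 5-FU 5 or any 1 PBS tumor was left out, where 3.43% to 10.5% of all genes were called higher. Each of the 3 was called in 2 of the 9 fits that left out 1 tumor.

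No tested segment was called under cisplatin alone: 0 of 15 were called by edgeR against PBS, 0 had an unadjusted p under 0.05, DESeq2 called 0, and 0% of all genes were called higher. Trbv13-2 was at 0.313, 0.229, 0.101 and 0.592 CPM, a log2 fold change of 0.65 (SE 1.05). The standard errors of the 15 segments were 0.60 to 1.74 on the log2 scale.

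With cisplatin+ICB against PBS, Trbv13-2 alone among 15 tested segments was called, where 4.70% of all genes were called higher. It was at 0.901, 2.23, 0.177, 2.17 and 11.6 CPM, above all PBS tumors in 4 of 5, with a log2 fold change of 4.11 (SE 1.03, edgeR adjusted p = 0.0298). Over the 9 fits that left out 1 tumor its log2 fold change was 2.79 to 4.42. 10 of the 15 had an unadjusted p under 0.05. The count was 6 without Cisplatin+ICB 1 (18.2% of all genes higher), 5 without Cisplatin+ICB 3 (6.48%), and 0 without any other cisplatin+ICB tumor or any PBS tumor.

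**Figure D5:**
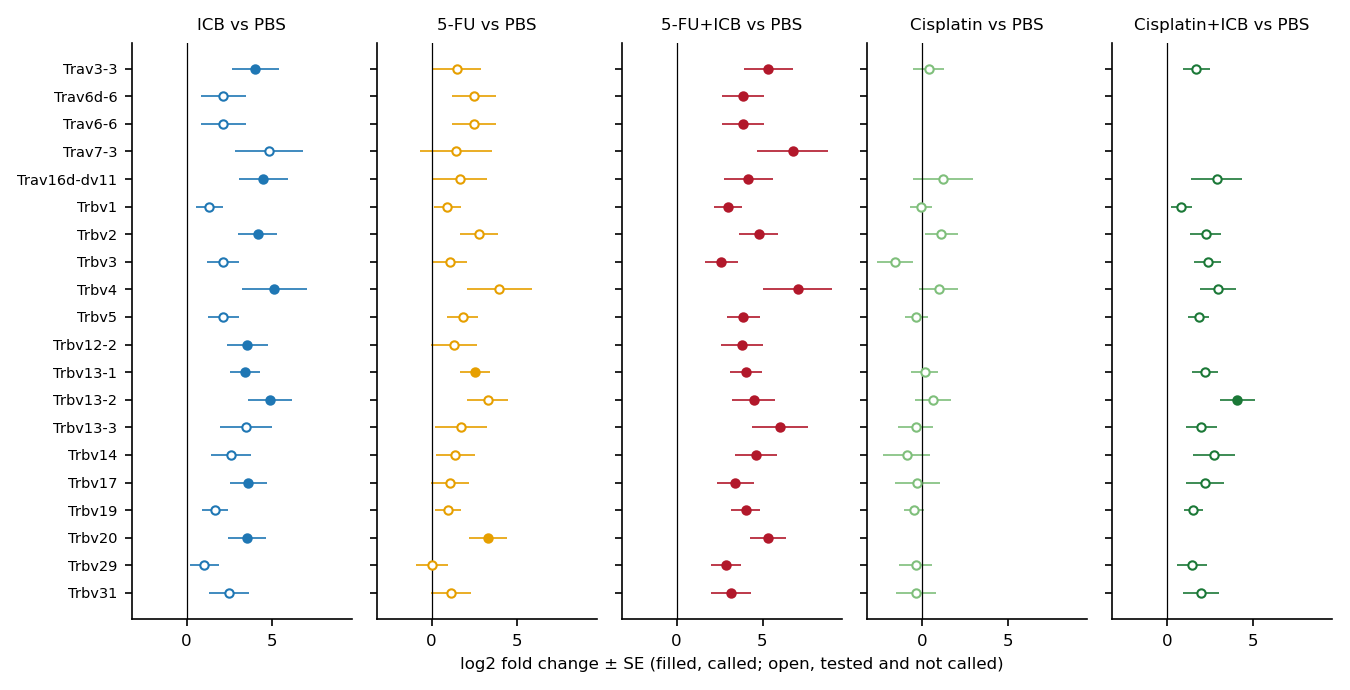
Log2 fold change against PBS, with its standard error, of tested V segments under ICB, 5-FU, 5-FU+ICB, cisplatin and cisplatin+ICB, filled where called by edgeR. Trav7-4 and Trav10 are not drawn, as they had no rounded count in PBS tumors. The called segments drawn under 5-FU+ICB lie from 2.59 (Trbv3) to 7.04 (Trbv4), and none is called under cisplatin.

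Whether chemotherapy added to ICB was tested directly. 5-FU+ICB against ICB called 0 of 22 segments by edgeR (6 with an unadjusted p under 0.05, 2 of 128 called by DESeq2), where 0.0670% of all genes were called higher and 0.162% lower. The smallest adjusted p was that of Trav7-4, with a log2 fold change of 3.93 (edgeR adjusted p = 0.0722), and with near-identical copies summed the smallest was 0.169. 5-FU+ICB against 5-FU called 0 of 22 (16 with an unadjusted p under 0.05, 6 called by DESeq2), with 0.0112% of all genes higher, and 10 segments were called once 5-FU+ICB 2 was left out (8.09% of all genes higher) and 5 once 5-FU 3 was (3.38%). Without 5-FU+ICB 2 the comparison with ICB called 1 segment (0.0841%). Cisplatin+ICB against ICB called 0 of 15 (3 with an unadjusted p under 0.05, 1 called by DESeq2) and against cisplatin 0 of 15 (10 with an unadjusted p under 0.05, 5 called by DESeq2), with 0% of all genes called in either. The comparison with cisplatin called 4 segments without Cisplatin+ICB 1 (8.31% of all genes higher) and 4 without Cisplatin+ICB 3 (2.33%). The interaction terms, which ask whether the combination differs from the sum of its parts, called 0 segments for 5-FU (1 with an unadjusted p under 0.05, where 0.0112% of all genes were called higher and 0.0781% lower) and 0 for cisplatin (3 such), as did DESeq2. These comparisons share the PBS or ICB tumors with those above.

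Genes of the constant regions and the rest of the receptor complex all rose under ICB and 5-FU+ICB, and some of them rose under cisplatin+ICB and 5-FU. Trac was at 4.74 to 5.48 CPM in PBS tumors (mean 5.04 ± 0.316, SD, n = 4) and averaged 52.5 ± 27.4 (SD, n = 5) with ICB, 98.7 ± 87.0 (SD, n = 5) with 5-FU+ICB, 25.4 ± 26.2 (SD, n = 5) with 5-FU, 27.3 ± 21.5 (SD, n = 5) with cisplatin+ICB and 5.51 ± 2.60 (SD, n = 4) with cisplatin. The 5-FU+ICB mean was 64.8 without 5-FU+ICB 5 and the 5-FU mean 13.9 without 5-FU 3. Of 10 genes for the constant regions, the Cd3 chains and the coreceptors Cd4 and Cd8, 10 rose under ICB (median log2 fold change 3.28, against -0.03 over all genes tested), 10 under 5-FU+ICB (4.25), 9 under cisplatin+ICB (2.37), 5 under 5-FU (2.26) and 0 under cisplatin (0.09, with 0 at an unadjusted p under 0.05 and 0 called by DESeq2). The 5-FU count was 0 without 5-FU 3, PBS 1 or PBS 2 and 2 to 6 without any other 1 tumor of these groups. For 5-FU+ICB the count stayed at 10 without 5-FU+ICB 5, and for cisplatin+ICB it was 10 without Cisplatin+ICB 1. The cisplatin+ICB count was 9 without Cisplatin+ICB 3, but 0 without Cisplatin+ICB 2, 4 or 5 and 0 to 3 without any 1 PBS tumor. With cisplatin+ICB and PBS fitted alone, 0 of 16734 genes were called at all by edgeR, 6 of 8 tested V segments having an unadjusted p under 0.05. Cd8a, which marks cytotoxic T cells, rose by 4.42 under ICB and 4.89 under 5-FU+ICB on the log2 scale, and Cd4, of helper and regulatory T cells, by 2.47 and 3.63 (edgeR adjusted p = 0.00101, 0.000811, 0.0161 and 0.00258). Cd4 was the gene of the 10 that did not pass under cisplatin+ICB (log2 fold change 1.55, edgeR adjusted p = 0.122). Of 20 genes of proximal receptor signalling, such as the kinases Lck and Zap70, 17, 17, 7, 8 and 0 rose in the same order of groups by edgeR, and none fell. The cisplatin+ICB count was 16 without Cisplatin+ICB 1 and the 5-FU count 2 without 5-FU 3.

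Other antigen receptor genes and lymphocyte markers were counted in the same way. Of 11 gamma-delta receptor genes listed, 3 were tested, of which 1 rose under ICB, 2 under 5-FU+ICB and 0 under cisplatin+ICB (1 without Cisplatin+ICB 1). Of 4 genes of V(D)J recombination and early thymic T cells, 2 were tested, and against PBS 0 were called by edgeR, 0 had an unadjusted p under 0.05 and 0 were called by DESeq2 in any treatment. Immunoglobulin V segments, the B cell counterpart, had a count in 235 of 346 rows, and of 16 tested 13 rose under 5-FU+ICB and 1 under ICB. Under cisplatin+ICB 0 of 6 tested were called by edgeR (3 with an unadjusted p under 0.05, 5 called by DESeq2), and 3 without Cisplatin+ICB 1. Without 5-FU+ICB 5 only 2 of 10 tested rose under 5-FU+ICB, against 14 of 19 tested Trav and Trbv segments, where 18.8% of all genes were called higher. The summed level of immunoglobulin V segments was 831.5 CPM in 5-FU+ICB 5, against 3.12 to 7.80 CPM in PBS tumors and a 5-FU+ICB median of 17.1 CPM. Of 5 B cell markers, 4 rose under 5-FU+ICB (3 without 5-FU+ICB 5), and of 7 lymph node and naive lymphocyte markers 7 rose (6 without it). DESeq2 called 1 of the 5 and 3 of the 7. Of 6 such markers tested under cisplatin+ICB, 0 were called by edgeR (3 with an unadjusted p under 0.05, 2 called by DESeq2), and 3 without Cisplatin+ICB 1. The summed level of these 7 was 29.6 to 1223 CPM in 5-FU+ICB tumors, 38.6 to 141.8 CPM in ICB tumors, all above the PBS tumors, and 24.1 to 35.9 CPM in PBS tumors, and its part in the V results was not tested.

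Markers of other cells also moved with treatment. The summed level of 6 mesothelioma and mesothelial markers was 272.8 to 361.5 CPM in PBS tumors, above all ICB (54.6 to 217.9), 5-FU (46.8 to 178.1) and 5-FU+ICB tumors (37.8 to 169.1). Cisplatin tumors were at 215.9 to 309.3 CPM, and cisplatin+ICB tumors at 132.6 to 664.8 CPM, highest in Cisplatin+ICB 1. Msln carried this sum in every tumor but 5-FU+ICB 5, with a median of 141.7 CPM over the 28 tumors against a median of at most 1.046 CPM for any other of the 6. In 5-FU+ICB 5 the sum rested on Krt8, Krt18 and Krt19 (33.4, 27.15 and 48.9 CPM), beside 0.50 CPM of Msln. Of 4 tested by edgeR, 1 rose and 0 fell under ICB, 5-FU and cisplatin+ICB alike, 2 rose and 1 fell under 5-FU+ICB (1 and 1 without 5-FU+ICB 5), and 0 were called under cisplatin (0 at an unadjusted p under 0.05, 0 by DESeq2). For ICB fitted in the matrix with cisplatin, 1 rose and 1 fell. Of 4 macrophage markers, 4 rose under ICB by edgeR (median log2 fold change 1.77), 3 under 5-FU+ICB, 2 under 5-FU (1 without 5-FU 3) and 1 under cisplatin+ICB (2 without Cisplatin+ICB 1). Their summed level was 903 to 1288 CPM in PBS tumors and 1832 to 5224 CPM in ICB tumors, highest in ICB 3. Of 4 natural killer cell markers 2 were tested, of which 1 rose under 5-FU and 1 under 5-FU+ICB, and these counts were 0 without 5-FU 3 and without 5-FU+ICB 5. Of 4 skeletal muscle genes none passed in any treatment against PBS by edgeR, with none at an unadjusted p under 0.05 and none called by DESeq2, except 1 for ICB when fitted in the matrix with cisplatin. Their summed level nevertheless varied widely, from 0.717 to 2910 CPM in ICB tumors and 1.18 to 3922 CPM in 5-FU+ICB tumors, against 88.1 to 153 CPM in PBS tumors. The highest muscle levels of their groups were in ICB 3, 5-FU+ICB 5, 5-FU 3 (1212 CPM) and Cisplatin+ICB 5 (792.3 CPM), which also had the highest V levels of these groups. Among cisplatin tumors the highest muscle level was in Cisplatin 1, which did not have the highest V level. Among PBS tumors it was in PBS 4, highest in Trav but not in Trbv. The part of these markers in the V results was not tested.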

How the data were processed

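RNA from 28 whole tumors was sequenced as 100-base single-end reads. The authors assigned reads to transcripts of GRCm38 (mm10 in the submitters' processing notes, which also name bcl2fastq 2.20.0.422 and kallisto 0.46.0) and deposited estimated counts per gene in 2 matrices. The annotation release was not given in the sources used here. The 9 PBS and ICB tumors are in both matrices with identical values. The members and gene lists were chosen with earlier results of these data known. Estimated counts were rounded for testing. edgeR 4.0.16 in R 4.3.3 was fitted over all 4 groups of a matrix, with its filter on low counts, TMM scaling, the quasi-likelihood test and Benjamini-Hochberg adjustment over all tested genes, and was tested on simulated data. The standard error is the absolute log2 fold change divided by the square root of F. DESeq2 1.42.0, median-ratio size factors, no filter, the compared groups alone, a replicate block, leaving out each tumor and, added after seeing the data, summed near-identical segments were alternatives.

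Named segments are the 8 of each locus with the highest mean CPM per kilobase, those leading a locus in any tumor, those called in a comparison with 5 or fewer calls, and near-identical copies of these. Trbv12-1, Trbv12-2, Trbv15, Trbv16, Trbv17, Trbv26 and Trbv31 and the other called segments were named after their values were seen. Identity and 31-base words were computed with Biopython 1.88 from GENCODE M21 transcripts, and Wilson 95% intervals with scipy 1.17.1 in Python 3.11.15. Segment detection needed 1 count. V counts per tumor, 50.6 to 3352, limit the precision. Lists were also counted without 5-FU+ICB 5, Cisplatin+ICB 1 or 5-FU 3, a choice made after seeing the data, as was the measure of 2 counts falling on the same unit.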

Additional observations from a re-analysis of the deposited data

Results flagged for a closer look

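Of 138 groups of 4 or 5 tumors examined for a value far from the rest, 23 held one. By chance about 1 in 20 groups of normally distributed values would, and the rate for skewed values such as these CPM was not measured. Many of the 23 lay in the same few tumors and are not independent. The values below are CPM unless stated, with the range of the other tumors of the group.

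In ICB 3, Trav10 was at 7.90 (others 0 to 2.13), Trav7-3 at 6.57 (0.0682 to 0.914) and Trbv13-3 at 3.95 (0.152 to 1.02), its Trav evenness was 0.624 (0.814 to 0.864) and the chance of drawing the same Trav unit was 21.2% (6.72 to 9.85). ICB 4 was low instead, with 53 segments detected (78 to 85) and Trbv13-1 at 0.122 (3.26 to 4.42).

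In 5-FU 3, summed Trbv was at 27.0 (2.56 to 9.38), Trac at 71.3 (6.14 to 21.1), Trbc2 at 93.65 (7.06 to 24.6), Trbv13-2 at 7.88 (0.192 to 0.968), Trbv13-3 at 1.34 (0.0274 to 0.359) and Trbv4 at 4.42 (0.0306 to 0.530). The alpha and beta constant regions and 3 beta segments were thus high in the same tumor.

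In 5-FU+ICB 1, Trav3-3 was at 14.2 (0.0620 to 1.83) and Trbv4 at 35.7 (0.155 to 6.84). In 5-FU+ICB 5, Trav7-3 was at 29.0 (0.0930 to 0.897) and Trbv13-3 at 30.9 (0.0310 to 4.83). In Cisplatin+ICB 5, Trbv13-2 was at 11.6 (0.177 to 2.23) and the chance of drawing the same Trbv segment was 30.2% (7.72 to 11.9).

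Smaller values were far from the rest in the untreated and cisplatin groups. Trbc2 was at 14.1 in PBS 2 (6.74 to 7.30), Trav7-4 at 0.0203 in PBS 1 (others 0), Trav10 at 0.0313 in Cisplatin 1 (others 0) and Trbv4 at 0.267 in Cisplatin 4 (0.0671 to 0.0848). The Trav7-4 and Trav10 values there were no more than 1 count.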

How the results depend on the processing

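The depth of V reads, 50.6 to 3352 counts per tumor, limits these results, and single Trav rows share reads with their copies in a C57BL/6J reference that may differ from the BALB/c.AusBP loci. The reads give neither junctions nor pairs of chains. Called segment numbers depended on the filter and the tool. Without the filter 23 were called in ICB against PBS, 0 in 5-FU against PBS and 41 in 5-FU+ICB against PBS, of 128 tested, where 9.70%, 3.82% and 11.5% of all genes were called higher. DESeq2 called 31, 7 and 41 in these, 8 in cisplatin+ICB against PBS, 2 in 5-FU+ICB against ICB, 6 in 5-FU+ICB against 5-FU, 1 in cisplatin+ICB against ICB and 5 in cisplatin+ICB against cisplatin. DESeq2 tested 128 segments in the 5-FU matrix and 123 in the cisplatin matrix, and the shares called higher were 24.2% for ICB (all genes 11.6%), 5.47% for 5-FU (7.45%), 32.0% for 5-FU+ICB (13.35%) and 6.504% for cisplatin+ICB (5.23%) against PBS. For 5-FU and cisplatin+ICB these shares were below or near the background. They were 1.56% (all genes 0.484%) for 5-FU+ICB against ICB, 4.69% (1.26%) against 5-FU and 4.07% (2.01%) for cisplatin+ICB against cisplatin, and the segment called in cisplatin+ICB against ICB was lower. With the compared groups fitted alone, 10 of 12 tested were called for ICB, 1 of 5 for 5-FU, 13 of 13 for 5-FU+ICB and 0 of 8 for cisplatin+ICB against PBS, where 20.7%, 12.85%, 18.8% and 0% of all genes were called higher. Median-ratio size factors moved none of these counts by over 1.5 times. With near-identical segments summed, chosen after seeing the data, 15 of 25, 3 of 25, 24 of 25 and 1 of 18 units were called for ICB, 5-FU, 5-FU+ICB and cisplatin+ICB against PBS, where 18.97%, 9.98%, 21.9% and 4.70% of all genes were, so that the 5-FU and cisplatin+ICB shares were near the background.

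Leaving out 1 tumor gave 6 to 11 called segments for ICB, 0 to 4 for 5-FU, 14 to 22 for 5-FU+ICB and 0 to 6 for cisplatin+ICB against PBS. In these fits 14.4% to 20.0%, 3.43% to 10.5%, 17.4% to 25.1% and 0% to 18.2% of all genes were called higher. The counts were 0 to 1 for 5-FU+ICB against ICB (at most 0.135% of all genes), 0 to 10 against 5-FU (at most 8.09%) and 0 to 4 for cisplatin+ICB against cisplatin (at most 8.31%). The number tested changed between fits, from 18 to 28 for 5-FU+ICB and from 14 to 17 for cisplatin+ICB against PBS, so the counts alone do not show stability. The replicate numbers did not pair the tumors, since the correlations of same-numbered tumors were not all above 0.1 in any comparison, and with a replicate block 9, 0, 18 and 0 segments were called for ICB, 5-FU, 5-FU+ICB and cisplatin+ICB against PBS, where 16.9%, 7.19%, 18.4% and 0.4995% of all genes were called higher. With 3 counts as the detection minimum, the mean numbers detected were 10.75 (PBS), 44.6 (ICB), 29.0 (5-FU), 13.25 (cisplatin), 53.4 (5-FU+ICB) and 31.2 (cisplatin+ICB). At 25 counts the expected numbers were 17.7, 14.5, 16.2, 17.3, 13.8 and 15.0. Trav evenness with cisplatin was 0.929 with near-identical segments summed. The difference in mean summed Trav CPM between cisplatin and PBS turned without Cisplatin 4 (1.22 against 1.29), and the PBS mean at equal depth fell below those of cisplatin and 5-FU without PBS 3 (25.5). No fold change of a called segment changed sign.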

Other observations

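The copy of a Trav unit that received the reads differed between tumors. In 5-FU+ICB 3 all 88 counts of the Trav7-4 unit were given to Trav7-4 (3.57 CPM) and 0 to Trav7d-4, whereas in ICB 5 Trav7d-4 had 71.3 counts (2.69 CPM) and Trav7-4 had 2.74 counts. In Cisplatin+ICB 4 the leading unit was Trav10 with 46 counts, none of them given to Trav10 itself. The copies were named by a C57BL/6J reference, and which copies BALB/c.AusBP mice carry was not tested.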
